A study of Mus musculus with 9 samples.

Results

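The olfactory receptor genes of the mouse autosomes were covered by 3467 windows of GpC methylation, 0.441% of the 786533 windows on chromosomes 1 to 19 that held a value in every library. A window was taken when it overlapped the body of a gene whose symbol starts with Olfr in GENCODE M21 on the mm10 genome. The rule used position and gene names only and no measured value. Of 1399 such genes, 1398 had at least 1 window. They comprised 1128 protein-coding genes and 271 pseudogenes, of which 56 are annotated as polymorphic pseudogenes. They lay on 18 autosomes, with 370 genes on chromosome 2, 293 on chromosome 7, 173 on chromosome 9, 104 on chromosome 11 and from 1 to 91 on each of the others. A further 8 Olfr genes on the X, with 28 windows, fell outside the rule.

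Accessibility was measured by NOMe-seq in female mouse embryonic stem cells (mESCs) from an FVB/CAST F1 cross. In this assay a GpC methyltransferase marks GpC cytosines that nucleosomes leave free in fixed nuclei, and bisulfite sequencing reads the marks, so a higher percent stands for more open chromatin. The 9 libraries comprised 1 library of undifferentiated day 0 cells, and 1 library per arm for a non-silencing hairpin (Nons) and a Smarcc1 hairpin at days 4, 5, 6 and 7 of differentiation. There were no replicates, and the read depth behind a window is unknown. Cells were expanded in 2i medium and moved to DME HiHi medium to differentiate. Viral hairpins were delivered on day 2 and puromycin selection began on day 3 in both arms, so both arms carried a virus, and day 0 came before it. Smarcc1 is a core member of the BAF nucleosome remodelling complex, and the titles name 1 hairpin against it. The assay holds no RNA, so neither the loss of Smarcc1 nor the silence of a receptor could be checked.

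Olfactory receptors are G-protein-coupled receptors that bind odorants on sensory neurons of the nose. They form the largest gene family of the mouse and lie in clusters spread over most chromosomes. Each mature sensory neuron transcribes 1 allele of 1 receptor gene, while the other receptor genes are held in heterochromatin marked by methylated histone H3 lysine 9. Class I receptors lie in a single cluster around the beta-globin genes, and class II receptors make up all other clusters. Embryonic stem cells are not olfactory neurons, and the values below describe receptor genes in another cell type.

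The methyltransferase can mark only GpC positions, and receptor start sites hold few of them, so 3 upstream sequences are shown, each covering the 250 bases before an annotated 5′ end in GRCm38/mm10. The lines are written 5′ to 3′ along the gene, with each GpC dinucleotide in capitals. Olfr16 (chr1:172950159-172950408, plus strand), a lyral receptor, and Olfr160 (chr9:37716251-37716500, minus strand), an acetophenone receptor, are receptors often studied as models. Ldb1 (chr19:46045215-46045464, minus strand), which encodes a protein that joins receptor enhancers in sensory neurons, is the contrast from outside the family.
Olfr16: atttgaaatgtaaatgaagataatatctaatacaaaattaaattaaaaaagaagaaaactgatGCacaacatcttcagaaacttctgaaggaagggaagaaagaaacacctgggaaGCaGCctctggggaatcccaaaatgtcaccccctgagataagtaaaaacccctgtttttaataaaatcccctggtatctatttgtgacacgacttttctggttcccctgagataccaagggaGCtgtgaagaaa
Olfr160: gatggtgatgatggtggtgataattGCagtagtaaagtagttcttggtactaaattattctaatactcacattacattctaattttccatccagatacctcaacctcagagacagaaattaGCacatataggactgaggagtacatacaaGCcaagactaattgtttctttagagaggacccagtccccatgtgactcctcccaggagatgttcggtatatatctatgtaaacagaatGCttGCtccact
Ldb1: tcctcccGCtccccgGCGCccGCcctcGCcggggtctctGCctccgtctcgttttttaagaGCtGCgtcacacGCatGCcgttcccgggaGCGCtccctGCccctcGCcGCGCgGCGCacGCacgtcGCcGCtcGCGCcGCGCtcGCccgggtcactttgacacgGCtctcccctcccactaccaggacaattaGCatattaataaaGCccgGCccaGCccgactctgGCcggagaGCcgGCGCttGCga
GpC counts take the cytosines of both strands and leave out GCG, so they fall below the number of capitals where GCG occurs, as in the line of Ldb1. By this count the lines of Olfr16 and Olfr160 hold 8 and 10 GpC cytosines, and that of Ldb1 holds 43. CpG dinucleotides numbered 1 in each receptor and 35 in Ldb1. Over the 1128 protein-coding receptor genes the median was 14 such GpC cytosines and 1 CpG dinucleotide in 250 bases. Over 19674 other autosomal protein-coding genes it was 30 and 9. No CpG at all was found upstream of 43.7% of receptors and of 5.30% of the other genes. The median GC content was 37.2% and 55.2%.

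Motifs known from receptor promoters were searched in the same 250 bases on both strands. TAATTA, the core bound by homeodomain proteins such as Lhx2 and Emx2, stood upstream of 254 receptors, which is 22.5%, against 4.90% of all 20802 protein-coding genes. The site of Ebf proteins, TCCCNNGGGA with N for any base, stood upstream of 24 receptors (2.13%), against 0.913% of all. The core promoter element TATAAA was found in 29.8% of receptors and 11.6% of all. These are matches of letters in sequences of differing base composition, and no set of them was tested.

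Receptor windows were less accessible than the autosomes as a whole by a small margin that had the same sign in every library. Their median GpC methylation was 10.7% at day 0, against 11.3% over all autosomal windows. The Nons libraries gave 13.6%, 20.6%, 9.88% and 6.12%, in day order here and throughout, against 14.0%, 21.2%, 10.3% and 6.41%. The Smarcc1 knockdown libraries gave 10.8%, 20%, 11.5% and 6.45%, against 11.1%, 20.2%, 11.9% and 7.14%. The level of a library as a whole moved by far more than the gap, with the highest values at day 5 and the lowest at day 7 in both arms. Within each library the receptors lay below.

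The mean gap over libraries was -0.426 ± 0.171 percentage points (SD, n = 9 libraries), tested by flipping signs over libraries (exact two-sided permutation p = 0.0039, the smallest that 9 libraries can give; Benjamini-Hochberg adjusted p = 0.00703 over 9 tests of this kind). It ranged from -0.202 points in the knockdown at day 5 to -0.691 points in the knockdown at day 7. On the log2 scale the mean ratio of the medians was -0.06 ± 0.04. The libraries come from 1 cross and share all windows, so this p covers the spread between these libraries and not between cell lines. Single windows spread widely around these medians, with an interquartile range over receptor windows of 4.85 to 11.7 points per library.

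**Figure D1:**
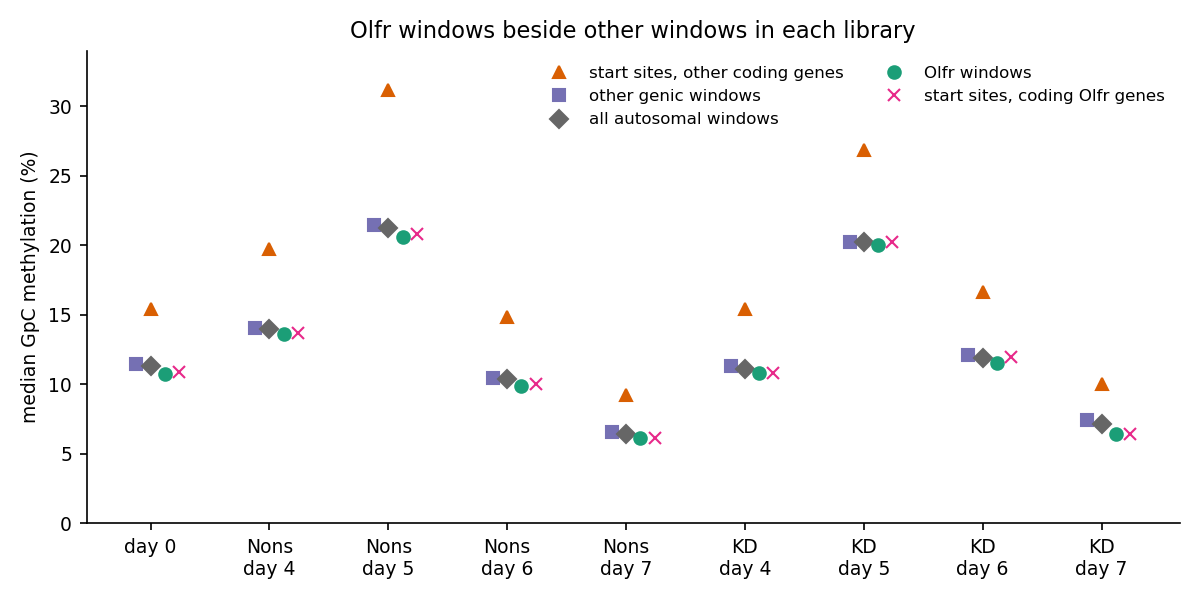
Median GpC methylation (percent, y axis) in each of the 9 libraries (x axis; KD is the Smarcc1 knockdown, 1 library per condition and day) for 5 sets of windows, with 1 point per set and no error bar. Receptor windows lie just below all autosomal windows in every library, and start sites of other coding genes stand 3.11 to 10.4 points above those of coding receptors.

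Receptor windows differed from the rest of the genome in make-up. Their median length was 3704 bp, against 2783 bp over the autosomes. The windows were built to a fixed number of read positions, so a longer window has sparser positions. GpC density here and below counts GpC cytosines on both strands without GCG, whereas CpG density counts dinucleotides. Receptor windows held a median of 63.0 GpC per kb against 81.9, and 229 GpC per window against 226. GC content was 37.9% against 42.5%, and CpG density was 4.08 against 7.75 per kb. Of the receptor windows, 87.9% lay below the autosomal median of GpC density.

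Set against other genic windows of like length, the gap was wider. Within 10 bins of window length it was -0.571 ± 0.111 points (SD, n = 9 libraries, lower in 9 of 9, exact permutation p = 0.0039, adjusted p = 0.00703). Within bins of both length and GC content it was -0.716 ± 0.146 points, again lower in 9 of 9 libraries with the same exact p. All 3467 receptor windows had comparison windows in these bins. Windows without any annotated gene gave a gap of -0.255 ± 0.103 points at like length, also lower in 9 of 9. That last comparison was chosen after the data were seen, and its exact permutation p was 0.0039, unadjusted.

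The gap also changed with GpC density. Receptor windows were cut into 4 equal groups by GpC per kb. In the sparsest group the receptors lay 0.249 points above the autosomal median, and other genic windows in that range lay 0.559 above. In the densest group, receptors lay at -1.11 points and other genic windows at 0.112. The difference between receptors and other genic windows went through -0.309, -0.468, -0.798 and -1.22 points from the sparsest to the densest group, with 8, 9, 9 and 9 of 9 libraries lower. Without windows that hold a start site of another gene, the densest group gave -1.04 ± 0.261. These values describe 1 set of windows cut into 4, and the trend was not tested.

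Vomeronasal receptor genes (Vmn) are the other large chemoreceptor family of the mouse, used by a separate sensory organ, and lie in clusters of similar GpC density. Their 1962 windows held 61.8 GpC per kb. At like length the Olfr windows were 0.331 ± 0.248 points higher than the Vmn windows, higher in 8 of 9 libraries (exact two-sided permutation p = 0.0117, unadjusted, chosen after the data were seen). At day 0 the medians were 10.7% and 10.8%, and the Olfr windows were not higher there.

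Windows that stood on the same side of the autosomal median in all 9 libraries were rare among receptors. Below it in all 9 were 23 of 3467 receptor windows (0.663%), against 0.524% of all autosomal windows. Above it in all 9 were 14 (0.404%), against 1.31%. The first share is near its background and the second is below it.

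The start site is where other genes stand out in this assay, and receptor genes did not. The 1111 windows with the annotated 5′ end of a protein-coding receptor had a median of 10.9% at day 0, against 15.4% over 17668 start-site windows of other protein-coding genes. Receptor start sites of the Nons libraries had 13.7%, 20.8%, 10% and 6.12%, and the other genes had 19.7%, 31.2%, 14.8% and 9.23%. The knockdown libraries had 10.8%, 20.3%, 11.9% and 6.38%, against 15.4%, 26.8%, 16.7% and 10%. The difference was -5.37 ± 2.16 points (SD, n = 9 libraries), lower in 9 of 9, with an exact two-sided permutation p = 0.0039 and adjusted p = 0.00703.

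Only 6 of the 1111 receptor start-site windows (0.54%) lay above the autosomal median in all 9 libraries, against 17.3% of the start-site windows of other coding genes. These sets differ in CpG density, with medians of 3.70 and 24.3 per kb, and in GpC density, with 59.2 and 102 per kb. The part of base composition in the difference was not tested.

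**Figure D2:**
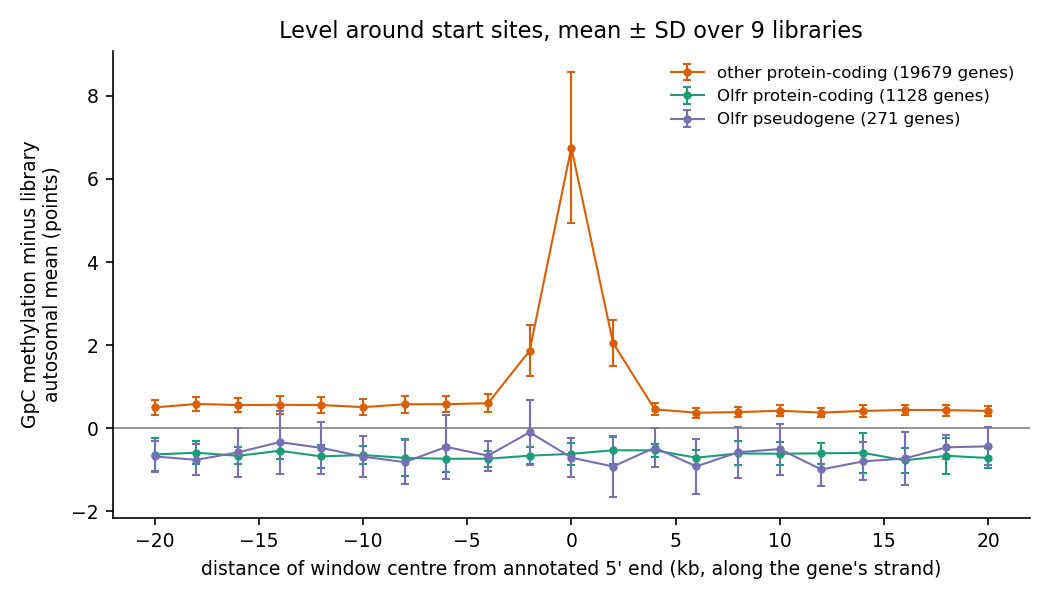
GpC methylation minus the autosomal mean of the library (percentage points, y axis) against the distance of a window's centre from the annotated 5′ end (kb along the gene's strand, x axis, bins of 2 kb), as mean ± SD over 9 libraries. Other protein-coding genes peak at 6.76 points at the start site, whereas coding receptors and receptor pseudogenes stay near -0.6 to -0.7 there.

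Around the 5′ end, the mean over windows of other coding genes was 6.76 ± 1.82 points above the autosomal mean at distance 0 and 0.51 ± 0.19 points at 10 kb upstream. Coding receptors were at -0.62 ± 0.26 points at the 5′ end and -0.64 ± 0.22 points at 10 kb upstream. Receptor pseudogenes were at -0.71 ± 0.46 and -0.68 ± 0.49 points. The receptor curve was thus flat, within its spread over libraries, across a position where other genes peaked.

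Within the receptor genes, start-site windows were slightly above the rest of the body. The difference was 0.200 ± 0.224 points (SD, n = 9 libraries), positive in 6, negative in 1 and 0 in 2 libraries, with an exact permutation p = 0.0313 and adjusted p = 0.0402. It was 0.0224 points, with an exact adjusted p = 0.853, when chromosome 2 was left out, and the adjusted p was above 0.05 in 6 of 9 runs without 1 library. Start-site windows were also sparser in GpC than the rest of the body, with medians of 59.7 and 65.1 per kb. The part of GpC density in the difference was not tested. Windows of receptors whose 250 upstream bases hold TAATTA (250 windows) lay 0.103 ± 0.593 points above the autosomal median, and the other 861 windows lay at -0.398 ± 0.195. The 24 windows with the Ebf site were at -0.420 ± 0.789 points and those without at -0.284 ± 0.2496. The spreads over libraries overlap for both motifs, but both groups share the same libraries, so this overlap does not measure a difference within libraries. Windows with TAATTA were higher than the others in most libraries, such as 0.321 against -0.480 points at day 0. They were not higher in all, with -0.614 against -0.203 points in Nons at day 4. The differences within libraries were not tested.

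No difference between coding receptors and pseudogenes, or between the receptor classes, was shown. The 3105 windows of protein-coding receptors minus the 362 windows of pseudogenes only gave 0.0671 ± 0.491 points (SD, n = 9 libraries, exact permutation p = 0.699, adjusted p = 0.699), positive in 6 libraries and negative in 3. Class I receptors were taken as the chromosome 7 cluster from Olfr543 to Olfr692, which spans the beta-globin genes and holds 384 windows. Class I minus class II was -0.179 ± 0.384 points (exact permutation p = 0.203, adjusted p = 0.229), negative in 5 and positive in 4 libraries. Neither difference exceeded its spread over libraries.

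By chromosome the low level was uneven. Of 16 autosomes with 10 or more receptor windows, 2 had a receptor median below that of the chromosome's other windows in all 9 libraries and none had it above in all 9. These were chromosome 11, with 338 windows at -1.08 ± 0.277 points (SD, n = 9 libraries), and chromosome 16, with 106 windows at -0.835 ± 0.450 points. Chromosome 2, with 798 windows, was at -0.0938 ± 0.313 points, and chromosome 9, with 391, at -0.0878 ± 0.348. Chromosome 7, with 740 windows, was at -0.321 ± 0.224 points, below in 8 libraries and equal in 1.

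On chromosome 11 the receptor median was 10.2% at day 0, against 11.4% over the chromosome's other windows. The Nons libraries gave 13.5%, 20.7%, 9.03% and 5.36%, against 14.1%, 21.5%, 10.5% and 6.58%. The knockdown libraries gave 10.2%, 19.4%, 10.9% and 6.15%, against 11.2%, 20.3%, 12.2% and 7.41%. Every library had the receptors lower, with differences from -1.49 to -0.605 points. The number of chromosomes with a lower receptor median ran from 9 of 16 in the knockdown at day 4 to 15 of 16 in Nons at day 5. Against the other genic windows of the same chromosome, 5 of the 16 were lower in all 9 libraries.

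**Figure D3:**
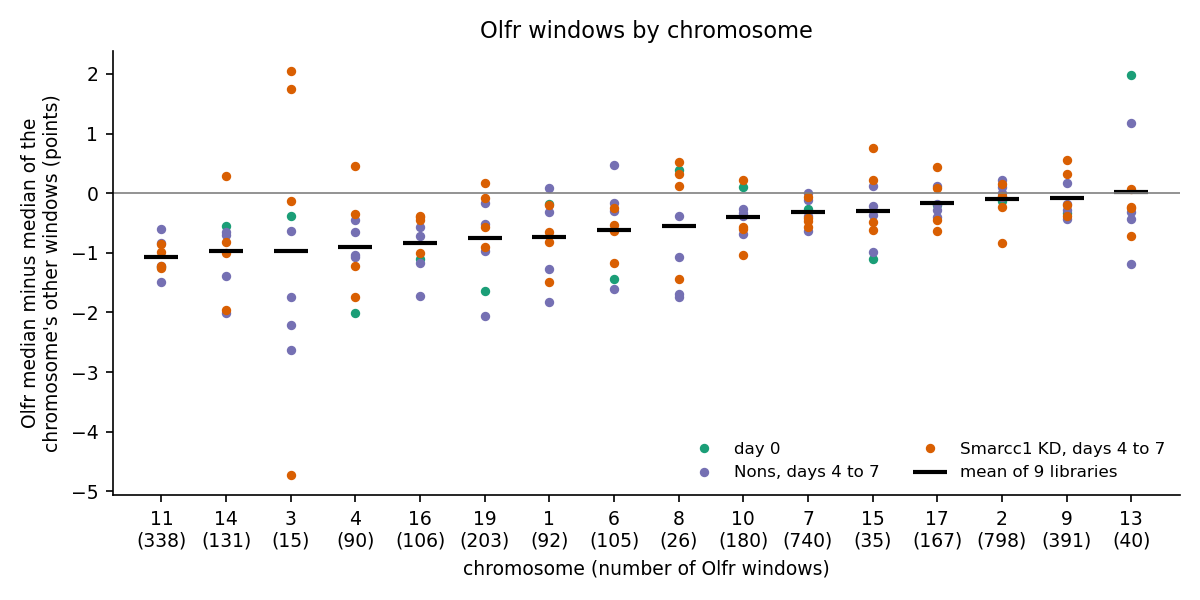
Median of Olfr windows minus the median of the same chromosome's other windows (percentage points, y axis) for the 16 autosomes with 10 or more Olfr windows (x axis, number of windows in parentheses), with 1 point per library and a bar at the mean of 9. Chromosomes 11 and 16 have all 9 points below 0, and chromosomes 2 and 9 straddle it.

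Receptor genes closer than 1 Mb were joined into 61 clusters, of which 21 were single genes and 13 held 30 genes or more. These 13 held 1107 genes and 2548 receptor windows, and 11 of them had a mean level below the autosomal median. The lowest was Olfr20 to Olfr412 on chromosome 11 (73350783 to 74366218, 44 genes), at -1.58 ± 0.534 points (SD, n = 9 libraries), below in 9 of 9. Next came Olfr334-ps1 to Olfr368 on chromosome 2 (36285023 to 37332772, 37 genes), at -1.52 ± 0.616 points, also below in 9 of 9. The class I cluster, Olfr543 to Olfr692 on chromosome 7 (102476579 to 105369355, 156 genes), was at -0.596 ± 0.350 points and was below in 9 of 9 as well.

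The largest of these 13 clusters had the highest level. Olfr987 to Olfr1274-ps on chromosome 2 (85330779 to 90403897) holds 287 genes and 596 receptor windows, and lay 0.279 ± 0.371 points above the autosomal median, above in 8 of 9 libraries. Its receptor windows had 11.5% at day 0, 14.5%, 22.0%, 10.7% and 6.60% across the Nons days, and 11.6%, 20.3%, 12.3% and 6.57% across the knockdown days. Olfr334-ps1 to Olfr368 on the same chromosome had 10% at day 0, 12.4%, 20%, 7.94% and 6.19% across the Nons days, and 9.38%, 18.7%, 9.78% and 5.56% across the knockdown days. The smaller cluster was thus lower in every library. Windows of the largest cluster held 56.2 GpC per kb and those of the smaller one 63.6.

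The other clusters of 30 or more genes lay between these values. Olfr722 to Olfr1507 on chromosome 14 was at -1.02 ± 0.709 points and below in 8 of 9. Olfr160 to Olfr986 on chromosome 9, with 123 genes, was at -0.0648 ± 0.308 and below in 7 of 9. Across the 36 clusters with 10 or more receptor windows, cluster medians correlated between libraries with a median Pearson r of 0.189 over 36 library pairs, from -0.150 to 0.614. Single receptor windows correlated with a median r of 0.0420, against 0.115 over all autosomal windows and 0.312 over start sites of other coding genes. These correlations are across clusters or windows that share their libraries and are given as a description.

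The level changed at the edges of the clusters. For the 30 clusters of 5 or more genes, all windows up to 1 Mb inside an edge lay at -0.481 ± 0.128 points and those up to 1 Mb outside at 0.0893 ± 0.0911 points, relative to the autosomal median. The difference was -0.570 ± 0.188 points (SD, n = 9 libraries), lower inside in 9 of 9. It had no test of its own. The first 100 kb inside stood at -0.708 ± 0.232 points and the first 100 kb outside at 0.0215 ± 0.252. GC content also changed there, from a median of 43.5% outside to 40.7% inside. The share of windows with a start site of other genes fell as well, from 5.91% to 1.61%. The part of either in the change was not tested. Fewer clusters reach farther inside, with 30 in the first 100 kb and 6 in the bin from 900 kb. The level in that bin was -0.111 ± 0.182 points, below 0 in 5 of 9 libraries.

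**Figure D4:**
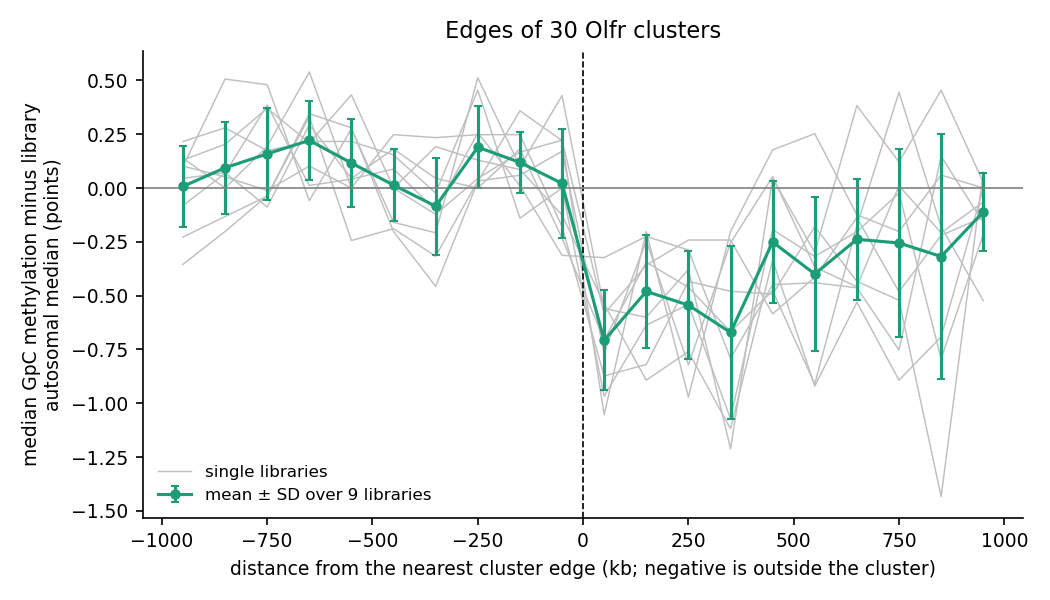
Median GpC methylation of all windows minus the autosomal median of the library (percentage points, y axis) in bins of 100 kb by distance from the nearest edge of 30 Olfr clusters (kb, x axis, negative outside), with grey lines for single libraries and green points for the mean ± SD over 9. The mean drops from 0.0215 points just outside to -0.708 points just inside, and all 9 libraries are below 0 in the first 400 kb inside.

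Receptor genes and the gene-free sequence between them were close in level. Windows inside the 30 clusters that overlap no gene numbered 3985. Receptor windows were 0.199 ± 0.207 points higher (SD, n = 9 libraries), higher in 8 of 9, with an exact permutation p = 0.0234 and adjusted p = 0.0352. The difference was 0.00236 points (exact adjusted p = 0.977) without chromosome 2, and the adjusted p was above 0.05 in 8 of 9 runs that left out 1 library. Receptor windows held a median of 63.0 GpC per kb and the gene-free windows 67.3, and the part of this in the difference was not tested. In the largest cluster the gene-free windows were at -0.594 points and the receptor windows at 0.279.

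Single receptors carried large scatter between libraries, with a median SD of 3.47 points over libraries among receptor genes. The start-site window of Olfr160 had 7.69% at day 0, 17.8%, 32.8%, 15.7% and 9.93% across the Nons days, and 12.7%, 21.6%, 14.4% and 9.64% across the knockdown days. It was above the autosomal median in 8 of 9 libraries, with day 0 as the exception. Olfr16 had 15.3% at day 0, 8.38%, 32.1%, 12.3% and 7.79% across the Nons days, and 8.70%, 26.98%, 12.4% and 10.9% across the knockdown days, above in 7 of 9. Olfr1507 had 3.57% at day 0, 20%, 5.36%, 8.33% and 13.3% across the Nons days, and 16.1%, 24%, 17.6% and 6.03% across the knockdown days, above in 5 of 9.

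The neighbour of Olfr1507, Olfr1508, had 10.2% at day 0, 6.96%, 13.5%, 13.0% and 6.84% across the Nons days, and 16.7%, 15.5%, 5.71% and 2.99% across the knockdown days, above in 3 of 9. Olfr2, a receptor for octanal, had 15.7% at day 0, 15.6%, 16.4%, 7.50% and 4.65% across the Nons days, and 9%, 18.9%, 9.20% and 11.9% across the knockdown days, above in 3 of 9. Olfr78, a receptor for short-chain fatty acids that is also used outside the nose, was above in 5 of 9, with values from 3.08% to 25.6%. Olfr73, the eugenol receptor, was above in 3 of 9, with 0 at day 0 and 21.7% in Nons at day 5. Olfr15, Olfr17, Olfr151 and Olfr1509 were above in 2, 2, 3 and 3 of 9. None of these 11 model receptors was on 1 side of the median in all 9 libraries.

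The level of a gene was the mean of its windows minus the autosomal median, a measure unlike the medians over windows above. On it 45.1% of 1396 receptor symbols lay below 0, with a median of 0.193 points. No such share was taken over other genes, so the 45.1% has no background and does not place receptors above or below them. With means on both sides, receptor windows lay at -0.606 points from the autosomes. The 5 highest receptors were Olfr336-ps1, Olfr1164, Olfr304, Olfr511-ps1 and Olfr1050-ps1. Olfr304, a coding gene of chromosome 7 with 2 windows, had 15.2% at day 0, 18.2%, 37.6%, 16.02% and 10.7% across the Nons days, and 15.7%, 34.4%, 17.7% and 10.3% across the knockdown days, above the autosomal median in 9 of 9. The 5 lowest were Olfr1343-ps1, Olfr500-ps1, Olfr1227-ps1, Olfr991-ps1 and Olfr861-ps1, all pseudogenes with 1 window each. Olfr991-ps1 had 8.11% at day 0, 9.41%, 16.1%, 7.50% and 0.971% across the Nons days, and 4.24%, 14.5%, 8.77% and 6.67% across the knockdown days, below in 9 of 9. These genes were picked by their level, so the values are a description.

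Genes that work with the receptors were read at their start sites, from a list of 21 chosen for their role, of which all but Emx2 had a window (20 genes). The mean over libraries lay above the autosomal median for 17 of the 20, with a median of 6.06 points. None was above it in all 9 libraries, against 17.3% of the start-site windows of other coding genes. Those windows also stood above the autosomes, with a median of 15.4% against 11.3% at day 0, so a raised level is not particular to this list. The share of those windows with a mean above the autosomal median was not taken, so the 17 of 20 has no background. Ebf1, a transcription factor of sensory neurons, had the highest mean, with values from 5.41% in Nons at day 7 to 63.2% in Nons at day 4. Ldb1 had 19.2% at day 0, 3.33%, 35.8%, 21.5% and 16.7% across the Nons days, and 19.1%, 40.5%, 36.5% and 3.70% across the knockdown days. The 3 genes below were Rtp1, which carries receptors to the cell surface, and Cnga4 and Cngb1, subunits of the olfactory cation channel, at -2.77, -0.252 and -1.03 points.

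During differentiation of the Nons cells the receptors followed the autosomes. The receptor median minus the autosomal median was -0.576 points at day 0 and -0.317, -0.624, -0.468 and -0.288 points at days 4, 5, 6 and 7. The move from day 0 to day 7 was 0.288 points, with 1 library at each end and no test.

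The knockdown was compared with Nons within each day, to see whether receptor windows changed when Smarcc1 was targeted. The median paired difference over receptor windows was -2.90, -0.507, 1.51 and 0.333 points on days 4, 5, 6 and 7. Over all autosomal windows it was -2.80, -1.07, 1.496 and 0.658 points. The sign thus turned between days 5 and 6 for both. The mean over days was -0.391 ± 1.87 points for receptors (SD, n = 4 day pairs, exact two-sided permutation p = 0.75, where 0.13 is the smallest that 4 pairs allow), so the design could not reach 0.05. Without day 4 it was 0.446 points.

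Relative to the autosomes the receptor difference was -0.107, 0.566, 0.0155 and -0.325 points on the 4 days, with a mean of 0.0373 ± 0.380 (n = 4 day pairs, exact permutation p = 0.875) and -0.139 without day 5. Of the 16 chromosomes, 16, 9, 2 and 3 had a negative receptor difference on the 4 days. Start-site windows of receptors gave -2.86, -0.571, 1.54 and 0.183 points, close to all receptor windows. Start sites of other coding genes gave -4.09, -3.67, 1.62 and 0.820 points. The receptor start sites minus the others gave 1.24, 3.10, -0.0791 and -0.637 points, with an exact permutation p = 0.5 over the 4 day pairs. The 2 sets had unlike levels in Nons, with medians of 13.6% and 19.7% at day 4 and 20.7% and 31.2% at day 5. Differences in proportion to these levels were not tested.

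**Figure D5:**
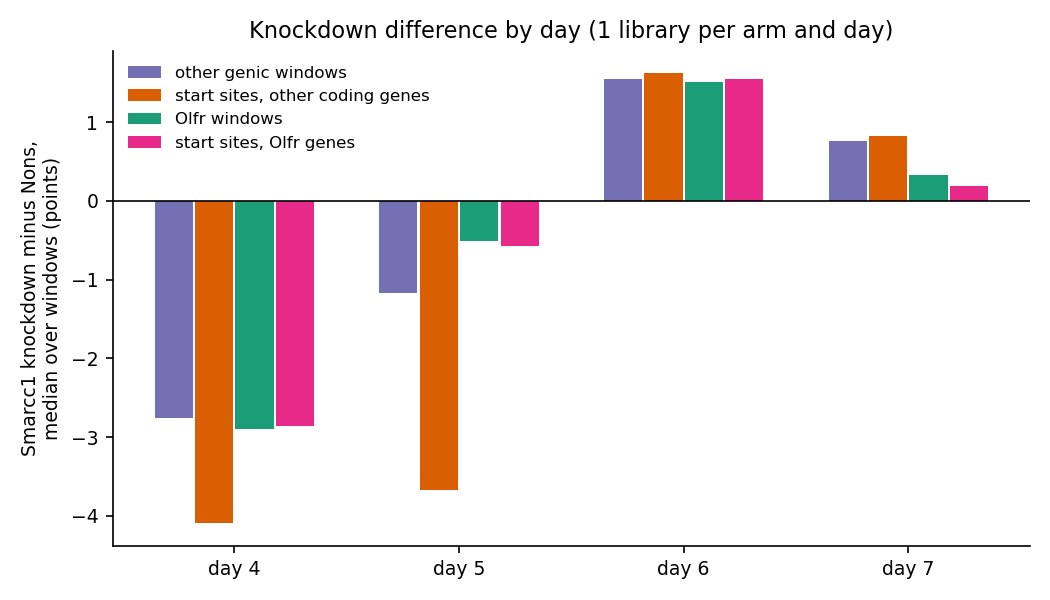
Median over windows of the Smarcc1 knockdown minus Nons difference (percentage points, y axis) on each day (x axis) for 4 sets of windows, with 1 library per arm and day and no error bar. All 4 sets are below 0 on days 4 and 5 and above 0 on days 6 and 7, and start sites of other coding genes differ from the rest mainly on days 4 and 5, at -4.09 and -3.67 points. Those start sites also had higher medians in Nons on these days, at 19.7% and 31.2%.

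No single receptor window passed the test, in which the days of a time course stood in for replicates. A difference confined to a single day could go unseen in it. In limma with day as a block over 829493 windows, X windows included, 0 receptor windows and 0% of all windows had an adjusted p under 0.05, and the lowest adjusted p was 0.995. At an unadjusted p under 0.05, 51 receptor windows (1.47%) were higher in the knockdown, against 1.58% of all windows. Lower in the knockdown were 71 (2.05%), against 2.65%. On all 4 days, 157 receptor windows (4.53%) were higher, against 4.95%, and 221 (6.37%) were lower, against 6.81%. All 4 of these shares lie only a little below their background. They come from the same libraries and were not tested against it. The split by direction depended on the scale. With each library centred on its autosomal median, 67 receptor windows (1.93%) were higher and 66 (1.90%) lower at an unadjusted limma p under 0.05. The shares of all windows were then 2.22% and 2.42%. With quantile normalization 76 (2.19%) were higher and 65 (1.87%) lower, against 2.45% and 2.55%.

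The largest mean differences of constant sign are given as values. A window in Olfr675 on chromosome 7 (105021845 to 105025247) read 9.01%, 0, 6.35% and 3.61% with the Nons hairpin and 29.2%, 28.3%, 16.1% and 7.35% with the Smarcc1 hairpin, a mean difference of 15.5 ± 10.9 points over the days (limma adjusted p = 0.995). A window shared by Olfr1034 and Olfr1035-ps1 on chromosome 2 (86048073 to 86051953) read 17.6%, 49.0%, 27.5% and 7.63% with the Nons hairpin and 4.55%, 13.0%, 12.5% and 4.55% with the Smarcc1 hairpin, a mean difference of -16.8 ± 13.8 points (limma adjusted p = 0.995). Windows in Olfr937 and Olfr601 had mean differences of 12.3 and 12.3 points, and windows in Olfr1272 and Olfr1300-ps1 had -14.6 and -13.8 points. None of the 6 windows holds a receptor start site.

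Of the 20 pathway genes with a start-site window, 3 had an unadjusted limma p under 0.05, each with an adjusted p = 0.995. Over all windows the share at an unadjusted limma p under 0.05 was 4.23%. No share was taken over start-site windows alone, so the count is a description. The mean difference, knockdown minus Nons, was -14.0 points for Adcy3, the adenylyl cyclase of odorant signalling, which was higher in the knockdown on 1 of 4 days. It was -12.6 points for Ehmt1, a histone H3 lysine 9 methyltransferase, and -8.81 for Reep1, a receptor carrier, both lower on all 4 days. Kdm1a, Cbx5 and Ebf1 had mean differences of 10.7, -9.88 and -9.24 points and limma unadjusted p-values of 0.0982, 0.155 and 0.0982.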

How the data were processed

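NOMe-seq libraries of 9 samples were analysed, grouped by the condition and day in the sample titles. Alignment by the authors used Bismark on mm10, after trimming with trim_galore, with sites that differ between FVB/NJ and CAST/EiJ masked, and GpC positions were kept. The deposited values are percent methylated GpC calls, both alleles merged, in windows of 200 read positions by the title of the table. No normalization between libraries was seen, and no read counts were given, so depth is unknown and no counting interval was computed. How reads from near-identical receptor genes were placed could affect single windows and was not tested.

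Of 833294 windows, 786533 on chromosomes 1 to 19 held a value in all 9 libraries, and 4 of 3471 receptor windows were removed for a missing value. Genes came from GENCODE M21, and sequences from the GRCm38 assembly. Levels are medians over windows. Differences over libraries were tested with exact two-sided sign-flip permutation tests, with Benjamini-Hochberg adjustment over 9 tests, and single windows with limma 3.58.1 in R 4.3.3, with day as a block. Other steps used Python 3.11.15, numpy 2.4.6, pandas 2.3.3 and matplotlib 3.10.9. The limma fit and the differences within bins were tried on simulated data, and the sign-flip test on fixed series of numbers. The named genes were a list of 11 model receptors, the 5 highest and 5 lowest receptors by mean level, clusters of 30 or more genes, the 3 largest mean rises and falls of constant sign among receptor windows, and 21 pathway genes. The members and lists were chosen with earlier results of these data known. Alternatives were means, removal of windows at 0 or 100 percent, windows of 10 kb or less, quantile normalization, removal of windows shared with other genes, of chromosome 2 or 7 and of single libraries or days, other length bins and chromosome references, and, for limma, the arcsine scale, centring and no day block.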

Additional observations from a re-analysis of the deposited data

Results flagged for a closer look

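The knockdown minus Nons difference over receptor windows had opposite signs on day 4 (-2.90 points) and day 6 (1.51 points), with all 16 chromosomes that hold 10 or more receptor windows below 0 at day 4 and 14 of 16 above 0 at day 6. The opposite signs are why it is listed. With 1 library per arm and day, this contrast of days was not tested. All autosomal windows moved alike, by -2.80 and 1.496 points.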

How the results depend on the processing

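The gaps of receptor windows to the autosomes and to other genic windows at like length or like length and GC, and the gap of receptor to other start sites, kept their sign and their side of the threshold in every alternative run, with means of -0.454 to -0.393, -0.599 to -0.552, -0.748 to -0.686 and -5.66 to -4.74 points when 1 library was left out. The following alternatives were chosen after seeing the data. Without the clusters of chromosomes 2, 7 and 9 the first 3 gaps were -0.629, -0.783 and -0.852 points, and against genic windows without a start site the length and length and GC gaps were -0.564 and -0.701. The difference from gene-free windows of the clusters lost its adjusted p under 0.05 with means (0.0790 points), without windows at 0 or 100 percent (0.0783), without windows shared with another gene (0.188), without chromosome 2 (0.00236) and in 8 of 9 leave-one-out runs, all but that without Nons day 5 (0.156 to 0.247 over all 9 runs). The start site minus body difference lost it with means (0.131), without chromosome 2 (0.0224) and in 6 of 9 leave-one-out runs, those without day 0, Nons day 5 or 6, or knockdown day 4, 5 or 6 (0.151 to 0.230 over all 9 runs). Coding minus pseudogene turned negative without windows at 0 or 100 percent (-0.0246) and without the knockdown library of day 6 (range -0.0151 to 0.193). The knockdown difference turned positive without day 4 (0.446). Relative to the autosomes it turned negative with means (-0.0231), with quantile normalization (-0.0391) and without day 5 (-0.139). The day 0 to day 7 move in Nons was 0.116 points with quantile normalization. With other genic windows as the reference, 5 chromosomes were lower in all 9 libraries, and without the day block limma gave 20 receptor windows at an unadjusted p under 0.05, against 122 with it. The causes were not tested. By replicate number, no paired analysis was possible because the groups share only number 1. Knockdown and Nons were paired by day instead. Unknown depth limits all single windows.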

Other observations

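The 28 windows of the 8 Olfr genes on the X, outside the autosomal set, had a median of 9.38% at day 0, 14.9%, 19.8%, 9.02% and 6.41% with the Nons hairpin and 10.5%, 18.5%, 9.54% and 7.61% with the Smarcc1 hairpin on days 4 to 7. Over all 42960 X windows these were 11.3%, then 14.0%, 21.3%, 10.3% and 6.00%, then 11.2%, 20.5%, 11.8% and 6.58%. The X receptors were lower in 6 of 9 libraries. Receptor windows at 0 percent made up 1.07% at day 0 and 0.0288% to 5.19% of receptor windows in the other libraries, against 1.45% at day 0 and 0.0290% to 5.35% of all autosomal windows.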
